A study of Mus musculus with 6 samples.

Results

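The genes of the IL-6, IL-17 and IL-22 cytokine families were examined in mouse colorectal tumors as 10 members fixed by name, *Il6*, *Il11*, *Osm*, *Lif*, *Il17a*, *Il22*, *Il22ra1*, *Il23a*, *Stat3* and *Socs3*, out of 54167 genes in the deposited table. RNA-seq was made from 6 tumors of C57BL/6J mice. In all of them tumors had been induced by azoxymethane (AOM), a carcinogen, and the colitis-inducing agent dextran sulfate sodium (DSS). Male mice of 8 weeks received 10 mg/kg AOM and then repeated cycles of drinking water with 2.5% DSS for 7 days each, and tumor burden was evaluated on day 98. The control group was *Trp53fl/fl* (n = 3), in which both *Trp53* alleles carry loxP sites and no Cre is present. The other group was VP, that is, Pvillin-Cre + *Trp53fl/fl* (n = 3), in which the villin promoter drives Cre in intestinal epithelium, so that immune and stromal cells of the tumor keep *Trp53*. Expression is given as TPM (transcripts relative to a fixed total), which are corrected for transcript length and allow levels of different genes to be set side by side. The tumors were bulk tissue, so that fewer cells of a type and less RNA per cell cannot be told apart.

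IL-6, IL-11, oncostatin M and leukemia inhibitory factor are secreted cytokines that bind receptors sharing the gp130 chain, encoded by *Il6st*. The receptors activate JAK kinases, which phosphorylate the transcription factor STAT3, and STAT3 induces SOCS3, an inhibitor of the same pathway. IL-23 maintains T helper 17 (Th17) cells and type 3 innate lymphoid cells, which secrete IL-17A and IL-22. IL-22 signals through a receptor found mainly on epithelium, and with IL-17A it induces antimicrobial proteins and chemokines that attract neutrophils.

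The targeted gene, *Trp53*, was lower in each VP tumor, at 38.45, 32.79 and 27.83 TPM against 124.94, 99.30 and 147.45 TPM (log2 fold change -1.87, limma adjusted p = 0.0207), and 4 of the members, *Osm*, *Lif*, *Stat3* and *Socs3*, lie on the same chromosome 11. The depth of the libraries is unknown, because TPM keep no read counts, and each tumor had between 14857 and 15234 genes at 1 TPM or more.

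The expression filter, set at 1 TPM or more in 3 or more tumors, was passed by 9 of the 10 members, which were tested with limma on log2(TPM + 1). *Il22* did not pass it. *Il6* and *Il17a* reached 1 TPM in only 1 and 2 of the *Trp53fl/fl* tumors but in all VP tumors. No member differed between the genotypes at an adjusted p-value under 0.05 in limma, against 25 of the 15117 genes tested (0.165%), with 12 genes above the controls (0.0794%) and 13 below them (0.086%), or 12 and 8 after median-of-ratios rescaling. At an unadjusted p-value under 0.05, 4 members were higher in VP tumors, beside 4.51% of all genes tested, and 0 were lower, beside 8% of all genes tested. The same 4 members, *Il6*, *Osm*, *Lif* and *Il22ra1*, had higher values in every VP tumor than in any *Trp53fl/fl* tumor, a pattern seen in 6.03% of all genes tested. The genotypes overlapped in the other 6 members. The median log2 fold change was 0.52 over the 9 tested members and -0.07 over all genes tested, and all 9 were above 0, beside 39.2% of all genes tested.

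Sequence upstream of the transcription start was found for 8 of the 10 members (all but *Osm* and *Il23a*) in the RefSeq table for GRCm38.p6. The stretches below are shown because they lie in front of 3 of the members that separated the genotypes and of *Il11*, the most abundant ligand (at 1 of its 2 listed starts), and each is written 5′ to 3′ on the strand of the gene without annotated exon bases. The capitals mark a match to TGANTCA, called the AP-1 motif here, which reads alike on both strands. It is a looser form of the site of AP-1 factors such as *Fos* and Jun, with the middle base left free. In *Il6* they also mark a match to the NF-kB motif (GGGA, any base, then TTTCC).

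*Il6*, chr5:30012864-30013113, plus strand: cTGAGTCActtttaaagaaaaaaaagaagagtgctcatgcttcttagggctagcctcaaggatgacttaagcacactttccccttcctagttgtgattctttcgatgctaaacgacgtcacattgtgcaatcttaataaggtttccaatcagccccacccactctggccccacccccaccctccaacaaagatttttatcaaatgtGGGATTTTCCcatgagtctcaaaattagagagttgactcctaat
*Lif*, chr11:4257318-4257556, plus strand: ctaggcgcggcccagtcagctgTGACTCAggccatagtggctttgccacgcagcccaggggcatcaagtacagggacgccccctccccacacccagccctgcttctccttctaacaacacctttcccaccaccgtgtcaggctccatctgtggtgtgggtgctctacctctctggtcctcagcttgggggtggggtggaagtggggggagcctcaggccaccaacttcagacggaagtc
*Il22ra1*, chr4:135727909-135728158, plus strand: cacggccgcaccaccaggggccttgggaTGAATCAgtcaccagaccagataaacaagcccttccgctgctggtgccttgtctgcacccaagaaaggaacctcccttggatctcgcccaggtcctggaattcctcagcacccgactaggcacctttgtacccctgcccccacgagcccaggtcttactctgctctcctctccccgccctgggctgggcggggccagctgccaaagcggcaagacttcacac
*Il11*, chr7:4778142-4778391, minus strand: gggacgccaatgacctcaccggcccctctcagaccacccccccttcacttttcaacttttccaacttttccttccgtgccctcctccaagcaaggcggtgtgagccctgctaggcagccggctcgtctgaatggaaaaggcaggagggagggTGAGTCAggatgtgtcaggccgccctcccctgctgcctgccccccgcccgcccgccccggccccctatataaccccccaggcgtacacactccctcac

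In the 250 bases before the start, the AP-1 motif on either strand was present in 5 of the 8 members (*Il6*, *Il11*, *Lif*, *Il17a* and *Il22ra1*), beside 7.82% of the 27025 genes in the table, a gene with several starts counting once. The match began 249 bases before the start in *Il6*, 228 in *Lif*, 222 in *Il22ra1* and 98 in *Il11*. Its middle base was G or C, as in the usual AP-1 site, in *Il6*, *Il11* and *Lif*, and A in *Il17a* and *Il22ra1*. The share of all genes with the stricter form was not counted. The NF-kB motif was in 1 of 8 members, *Il6*, where it began 44 bases before the start, beside 0.414% of all genes. These 2 motifs were chosen after the expression values had been seen, and a match is a description of the letters, not of binding. The STAT motif TTCNNNGAA, the site bound by STAT dimers, was in 1 of 8 members, *Socs3*, beside 8.13% of all genes. No motif match overlapped another. The exon-free stretch around the *Socs3* match, which began 154 bases before the start, is shown because *Socs3* is the feedback gene of the pathway.

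*Socs3*, chr11:117969452-117969616, minus strand: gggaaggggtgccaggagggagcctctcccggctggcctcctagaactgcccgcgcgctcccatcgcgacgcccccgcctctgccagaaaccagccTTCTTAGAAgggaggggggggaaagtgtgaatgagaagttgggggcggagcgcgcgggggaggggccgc

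Among the IL-6 family ligands, *Il6* and *Osm* were several-fold higher in VP tumors by mean TPM, and *Il11*, the most abundant, differed by less than its spread between tumors. *Il6* (ENSMUSG00000025746, chr5:30013114-30019981 on the plus strand in the GENCODE M21 annotation of GRCm38), the inflammatory cytokine that names the family, was at 1.70, 0.48 and 0.23 TPM in the 3 *Trp53fl/fl* tumors, and in those of VP mice it was at 6.13, 4.57 and 4.46 TPM. The lowest VP tumor lay above the highest *Trp53fl/fl* tumor, and only 1 *Trp53fl/fl* tumor was above 1 TPM. Mean levels were 0.803 ± 0.787 TPM (SD, n = 3) and 5.05 ± 0.934 TPM (SD, n = 3). The log2 fold change of TPM + 1 was 1.82 (standard error 0.32, 95% confidence interval 1.08 to 2.56), which did not pass the limma adjustment (adjusted p = 0.123). An increase in VP tumors of at least this size was found in 48 of the genes tested (0.318%), and by p-value *Il6* ranked 77 of 15117.

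*Osm* (ENSMUSG00000058755, chr11:4236420-4241026, plus strand), which encodes oncostatin M, a product mainly of myeloid cells and T cells, was at 3.25, 2.08 and 3.41 TPM in *Trp53fl/fl* tumors and at 6.92, 7.78 and 9.38 TPM in VP tumors. Each VP tumor exceeded the highest *Trp53fl/fl* tumor. The means were 2.91 ± 0.726 TPM and 8.03 ± 1.25 TPM (SD, n = 3 each), and the log2 fold change was 1.21 (standard error 0.20, 95% confidence interval 0.74 to 1.69, limma adjusted p = 0.114). *Osm* had the smallest p-value among the members, rank 61 of 15117, and 151 genes (0.999%) had an increase in VP tumors of at least this size.

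*Lif* (ENSMUSG00000034394, chr11:4257557-4272514, plus strand) lies beside *Osm* and encodes leukemia inhibitory factor. Its level was 6.15, 5.72 and 7.23 TPM in *Trp53fl/fl* tumors and 8.94, 8.35 and 10.99 TPM in VP tumors. The genotypes again did not overlap, but the gap between them was small. The log2 fold change was 0.50 (standard error 0.16, 95% confidence interval 0.12 to 0.87, limma adjusted p = 0.323). Without VP replicate 3, the highest tumor, it was 0.39 and its unadjusted limma p-value was 0.0593.

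*Il11* (ENSMUSG00000004371, chr7:4772373-4782859, minus strand), a cytokine made largely by stromal cells, was at 36.21, 6.92 and 15.22 TPM in *Trp53fl/fl* tumors and at 19.04, 32.24 and 26.40 TPM in VP tumors. The highest and the lowest tumors were both *Trp53fl/fl*, and the VP values lay between them. The log2 fold change was 0.64 (standard error 0.52, 95% confidence interval -0.58 to 1.87, limma adjusted p = 0.615). It was 1.22 without *Trp53fl/fl* replicate 1 and 0.10 without *Trp53fl/fl* replicate 2, so that the value turned on single control tumors.

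**Figure D1:**
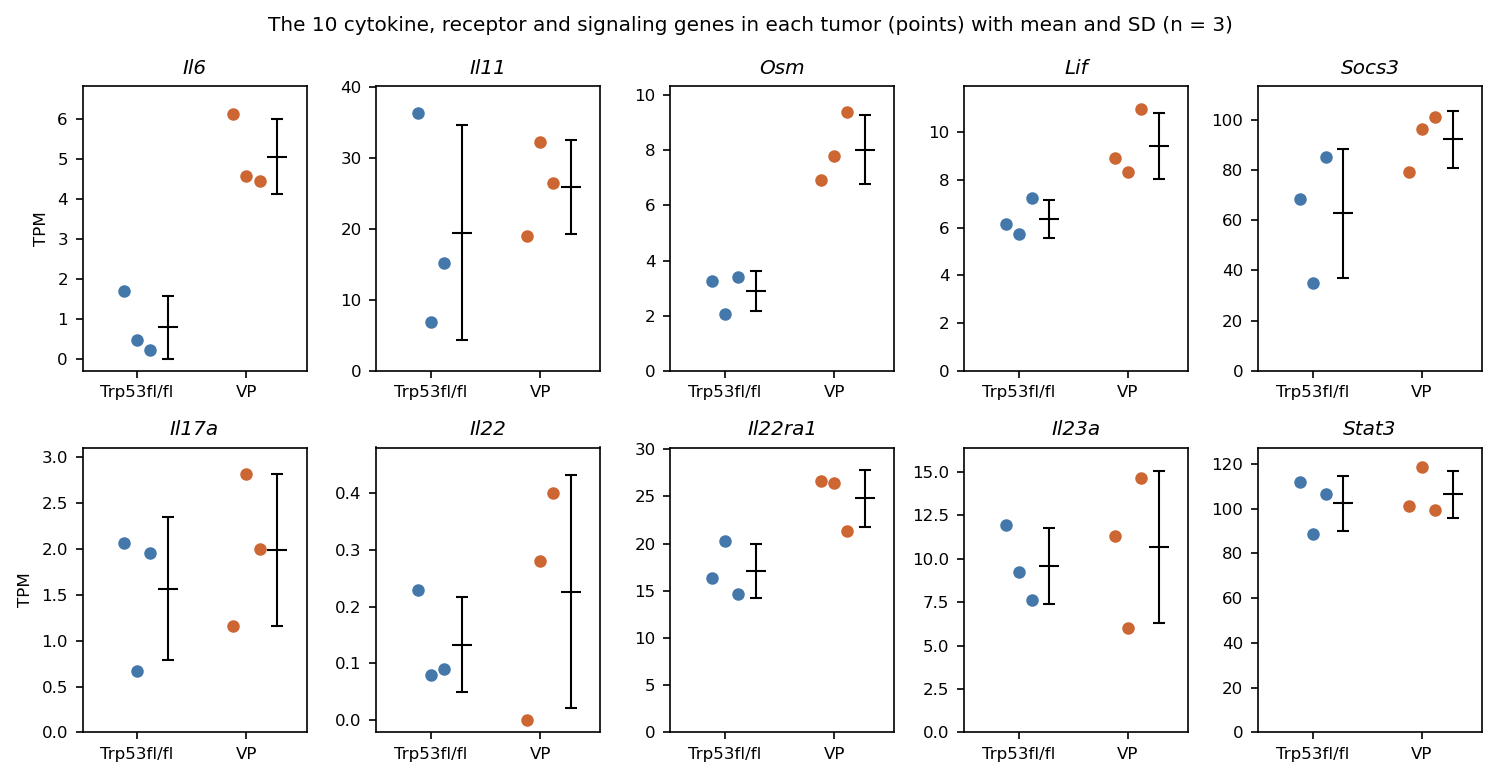
TPM of the 10 genes in each of the 6 tumors (points, 1 panel a gene with its own linear axis), with mean and SD (n = 3) at the right of each genotype. The genotypes separate for Il6, Osm, Lif and Il22ra1 and overlap for the other 6 genes.

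Taken as a sum, the 4 ligands reached 47.3, 15.2 and 26.1 TPM in *Trp53fl/fl* tumors and 41.0, 52.9 and 51.2 TPM in VP tumors. The sums overlapped, and *Il11* made up 45.5% to 76.5% of the sum in *Trp53fl/fl* tumors and 46.4% to 60.9% in VP tumors. *Il6* contributed 3.59%, 3.16% and 0.882% in *Trp53fl/fl* tumors and 14.9%, 8.63% and 8.71% in VP tumors. *Osm* contributed 6.87%, 13.7% and 13.1% and then 16.9%, 14.7% and 18.3%. The shares of *Il6* and of *Osm* did not overlap between the genotypes, while those of *Lif*, 13.0% to 37.6% and 15.8% to 21.8%, did.

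**Figure D2:**
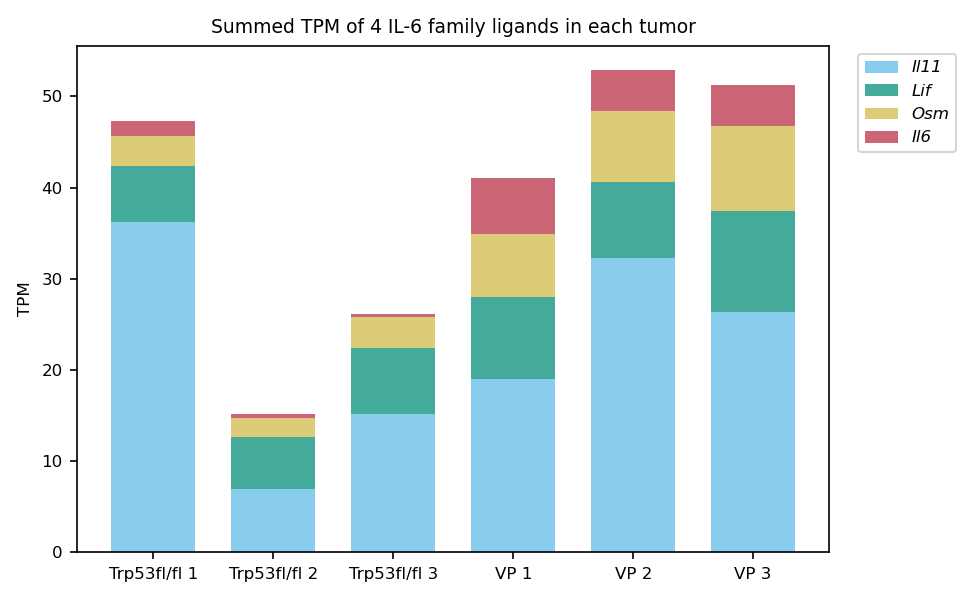
Summed TPM of Il11, Lif, Osm and Il6 in each tumor as stacked bars from 0. Il11 is the largest part of every bar, and the Il6 part is 4.46 to 6.13 TPM in VP tumors and 0.23 to 1.70 TPM in Trp53fl/fl tumors.

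Of the remaining IL-6 family ligands, *Ctf1*, *Clcf1* and *Ebi3* were among those that passed the filter. Their means were 4.09, 4.01 and 2.81 TPM in *Trp53fl/fl* tumors, above that of *Il6*, and 5.48, 3.53 and 3.36 TPM in VP tumors. The genotypes overlapped in each of them. *Il31*, the ligand of the *Il31ra* receptor, was listed at 0 in all 6 tumors, and *Cntf*, *Ctf2* and *Il27* did not pass the filter.

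No receptor chain of the IL-6 family passed the adjustment. *Il6st*, the shared gp130 chain, was at 34.31, 38.37 and 32.00 TPM in *Trp53fl/fl* tumors and at 26.83, 27.61 and 30.05 TPM in VP tumors, lower in each VP tumor (log2 fold change -0.30, standard error 0.12, limma adjusted p = 0.371). *Il6ra*, the IL-6 binding chain, had 2.52 to 2.95 TPM and 1.80 to 3.09 TPM (log2 fold change -0.07). *Osmr*, the oncostatin M receptor chain, had 7.56 to 9.29 TPM and 9.04 to 12.97 TPM, with overlap (log2 fold change 0.30, limma adjusted p = 0.490). *Il31ra* was the receptor gene with the greatest level and difference, at 457.21, 456.87 and 390.83 TPM in *Trp53fl/fl* tumors and 110.47, 227.12 and 160.18 TPM in VP tumors. Its log2 fold change was -1.44 (standard error 0.25, 95% confidence interval -2.02 to -0.86), and it did not pass the limma adjustment either (adjusted p = 0.123). The gene neighbours *Il6st*, and how reads were assigned at this locus could not be checked from TPM, so that the level and the difference of *Il31ra* are uncertain.

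*Il17a*, *Il22* and *Il23a*, the cytokines of the Th17 axis, overlapped between the genotypes. *Il17a* (ENSMUSG00000025929, chr1:20730905-20734496, plus strand), which encodes the founding IL-17 cytokine, was at 2.07, 0.67 and 1.96 TPM in *Trp53fl/fl* tumors and at 1.16, 2.82 and 2.0 TPM in VP tumors. Neither genotype was consistently higher (log2 fold change 0.24, standard error 0.32, 95% confidence interval -0.53 to 1.00, limma adjusted p = 0.775). Without *Trp53fl/fl* replicate 2 the log2 fold change of *Il17a* was -0.05.

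*Il22* (ENSMUSG00000074695, chr10:118204942-118210047, plus strand), the cytokine that acts on epithelium, was at 0.23, 0.08 and 0.09 TPM in *Trp53fl/fl* tumors and at 0.00, 0.28 and 0.40 TPM in VP tumors. The lowest and the highest values were both in VP tumors, and all were below 1 TPM. The difference of means of log2(TPM + 1) was 0.10 in an exact two-sided permutation test (p = 0.6, where the smallest p that 3 tumors against 3 allow is 0.1). *Iltifb* (chr10:118289629-118295038, minus strand), a near-identical copy of *Il22*, was listed at 0 in all 6 tumors, and the way in which reads were divided between the copies is not given in the sources used here, so that the *Il22* values are uncertain.

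*Il23a* (ENSMUSG00000025383, chr10:128296139-128298752, minus strand) encodes the p19 subunit of IL-23. It was at 11.93, 9.23 and 7.60 TPM in *Trp53fl/fl* tumors and at 11.33, 6.01 and 14.65 TPM in VP tumors, where the lowest and the highest tumor were both VP (log2 fold change 0.08, standard error 0.31, 95% confidence interval -0.65 to 0.81, limma adjusted p = 0.924). Its direction turned without *Trp53fl/fl* replicate 3 (-0.06) and without VP replicate 3 (-0.17). The partners of p19 were scarce, with 0.07 to 0.42 TPM over the 6 tumors for *Il12b*, the p40 subunit, and 0.03 to 0.12 TPM for *Il23r*, the IL-23 receptor.

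Of the 6 IL-17 family ligands fixed as a list, 3 passed the filter. *Il17c*, an epithelial member, was at 2.25, 1.79 and 2.96 TPM in *Trp53fl/fl* tumors and 2.39, 1.98 and 6.46 TPM in VP tumors, and *Il17d* also overlapped (limma adjusted p = 0.687 and 0.737). Among the 6 receptor and adaptor genes, *Il17re*, the chain that binds IL-17C, was at 3.90, 4.77 and 5.35 TPM in *Trp53fl/fl* tumors and 9.50, 7.20 and 5.50 TPM in VP tumors (log2 fold change 0.55, limma adjusted p = 0.375). *Il17rb*, the receptor for IL-25, was at 1.76, 2.46 and 3.33 TPM in *Trp53fl/fl* tumors and 1.17, 1.52 and 1.21 TPM in VP tumors (log2 fold change -0.59, limma adjusted p = 0.362). Both separated the genotypes without passing the adjustment, while *Il17rd* (log2 fold change -0.23) and *Il17ra* and *Il17rc*, the chains that form the IL-17A receptor, overlapped.

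*Il22ra1* (ENSMUSG00000037157, chr4:135728172-135752140, plus strand), the epithelial chain of the IL-22 receptor, was at 16.35, 20.29 and 14.67 TPM in *Trp53fl/fl* tumors and at 26.66, 26.37 and 21.32 TPM in VP tumors. All VP values lay above the *Trp53fl/fl* values, with VP replicate 3 just above *Trp53fl/fl* replicate 2. The log2 fold change was 0.52 (standard error 0.16, 95% confidence interval 0.14 to 0.89, limma adjusted p = 0.317). The other chain of that receptor, *Il10rb*, was at 51.74 to 58.53 TPM in *Trp53fl/fl* tumors and 55.12 to 58.15 TPM in VP tumors (log2 fold change 0.06), and *Il10ra*, the IL-10 receptor chain, had a log2 fold change of 0.08. The 12 epithelial marker genes summed to 10800 to 11300 TPM in *Trp53fl/fl* tumors and 12200 to 13200 TPM in VP tumors. Of the 12, 3 were higher at an unadjusted p-value under 0.05, beside 4.51% of all genes tested. Their median log2 fold change was 0.14, and the part of these markers in the *Il22ra1* difference was not tested. *Krt8* and *Krt19*, the keratins with the greatest levels in that list, had log2 fold changes of 0.10 and 0.39.

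Ordered by mean TPM, the members held the same first 7 places in both genotypes. In *Trp53fl/fl* tumors *Stat3* (102 ± 12.2 TPM) stood above *Socs3* (62.8 ± 25.7 TPM), followed by *Il11* (19.4 ± 15.1), *Il22ra1* (17.1 ± 2.88), *Il23a* (9.59 ± 2.19), *Lif* (6.37 ± 0.778), *Osm* (2.91 ± 0.726), *Il17a* (1.57 ± 0.778), *Il6* (0.803 ± 0.787) and *Il22* (0.133 ± 0.0839 TPM, all mean ± SD, n = 3). Neighbours overlapped from *Socs3* to *Il22ra1* and from *Il17a* to *Il22* and were otherwise separate. In VP tumors *Stat3* (106 ± 10.6 TPM) and *Socs3* (92.1 ± 11.4 TPM) overlapped, and *Il11* (25.9 ± 6.61) overlapped with *Il22ra1* (24.8 ± 3.0). *Il23a* (10.7 ± 4.36), *Lif* (9.43 ± 1.39) and *Osm* (8.03 ± 1.25 TPM) could not be ordered beyond their spread. *Il6* (5.05 ± 0.934) then stood above *Il17a* (1.99 ± 0.83) and *Il22* (0.227 ± 0.205 TPM) without overlap, so that *Il6* and *Il17a* stood in the opposite order from that of the means in *Trp53fl/fl* tumors.

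*Stat3* (ENSMUSG00000004040, chr11:100885098-100939540, minus strand), the transcription factor on which these cytokines converge, was at 112.01, 88.74 and 106.44 TPM in *Trp53fl/fl* tumors and at 101.30, 118.64 and 99.43 TPM in VP tumors. Its transcript level overlapped between the genotypes (log2 fold change 0.06, standard error 0.13, 95% confidence interval -0.25 to 0.36, limma adjusted p = 0.865), and the activating phosphorylation of the protein is not measured by RNA-seq. The sign of the *Stat3* difference turned without *Trp53fl/fl* replicate 2 (-0.04) and without VP replicate 2 (-0.02).

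*Socs3* (ENSMUSG00000053113, chr11:117966079-117970047, minus strand), the feedback inhibitor, was at 68.43, 34.81 and 85.18 TPM in *Trp53fl/fl* tumors and at 79.23, 96.21 and 100.85 TPM in VP tumors. Only VP replicate 1 fell below the highest *Trp53fl/fl* tumor. The log2 fold change was 0.63 (standard error 0.31, 95% confidence interval -0.10 to 1.36, limma adjusted p = 0.441), and it was 0.26 without *Trp53fl/fl* replicate 2. That tumor was the lowest of the 6 for 6 members, *Il11*, *Osm*, *Lif*, *Il17a*, *Stat3* and *Socs3*. Without it the log2 fold change was 1.72 for *Il6* and 1.05 for *Osm*.

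The other genes of these pathways, 64 genes in 9 fixed lists of ligands, receptors, kinases, factors and inhibitors, gave 43 tested genes. None passed the limma adjustment. At an unadjusted p-value under 0.05, 1 was higher (*Il17re*) and 5 were lower (*Il31ra*, *Il6st*, *Il17rb*, *Stat4* and *Socs4*) in VP tumors. Over all genes tested, 4.51% were higher and 8% lower at that p-value. *Stat4*, the factor that transmits IL-12 signals, had 2.64, 1.60 and 2.45 TPM in *Trp53fl/fl* tumors and 0.76, 1.10 and 1.31 TPM in VP tumors (log2 fold change -0.65, limma adjusted p = 0.341). *Jak1*, *Jak2* and *Jak3* had log2 fold changes of -0.17, -0.29 and -0.29, all unadjusted p-values above 0.05. Among 13 inhibitors, *Socs4* was lowest relative to the controls (log2 fold change -0.55, limma adjusted p = 0.348) and *Socs3* highest, with -0.21 for *Socs7*.

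**Figure D3:**
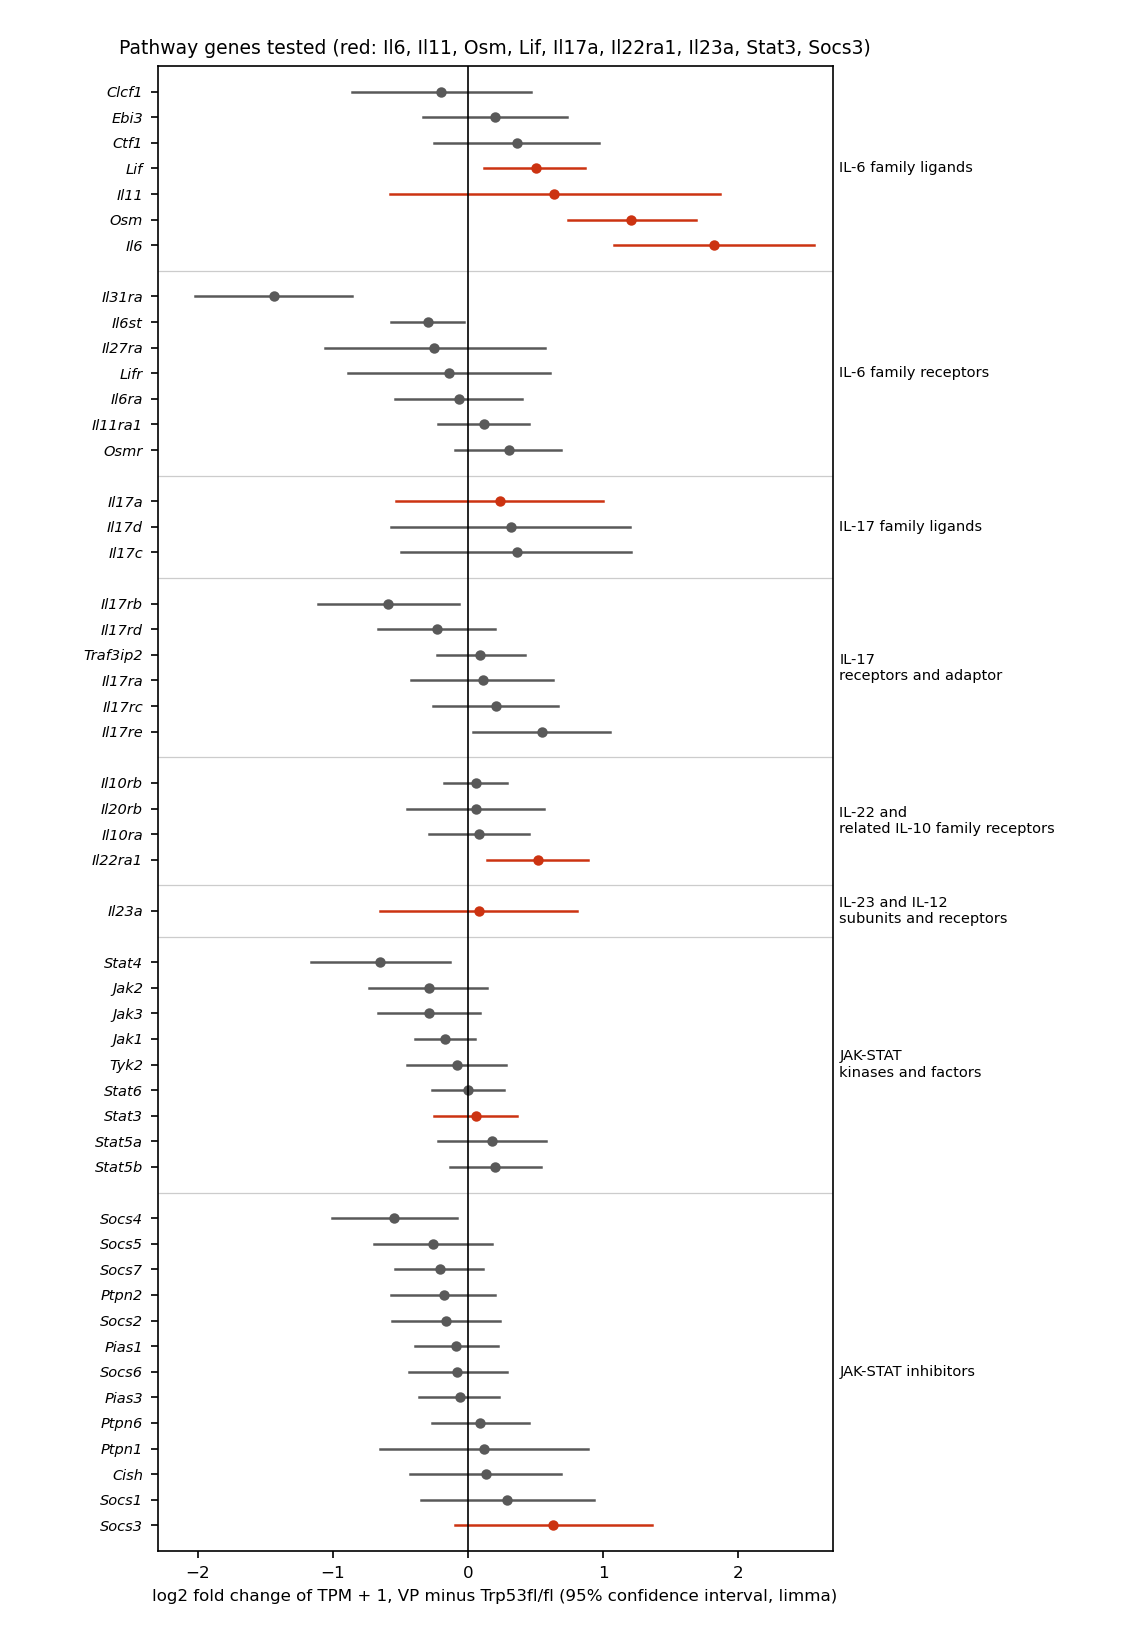
log2 fold change of TPM + 1 (VP minus Trp53fl/fl, points) with 95% confidence intervals from limma (lines) for the tested genes of the pathway lists that are reported here, with the 9 tested members in red. The intervals of Il6, Osm, Lif and Il22ra1 lie above 0, and those of Il11, Il17a, Il23a, Stat3 and Socs3 include it.

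Genes known to be induced by STAT3 in many tissues were described as a list of 24, of which 21 were tested. None passed the limma adjustment. At an unadjusted p-value under 0.05, 4 were higher (beside 4.51% of all genes tested) and 1 was lower (beside 8%). The median log2 fold change was 0.27. The 4 higher genes were *Hp* and *Lrg1*, acute-phase plasma proteins, *Fos*, an AP-1 subunit, and *Il4ra*, a chain of the IL-4 receptor. *Hp* had 133.49, 64.73 and 109.73 TPM in *Trp53fl/fl* tumors and 325.52, 270.40 and 148.96 TPM in VP tumors, which did not overlap (log2 fold change 1.25, limma adjusted p = 0.301). For *Lrg1* the log2 fold change was 1.02 (limma adjusted p = 0.366). The lower gene was *Il6st*. Leaving out the members and the IL-6 family receptor genes *Osmr* and *Il6st*, but keeping *Il4ra*, the median over 17 tested genes was likewise 0.27. In the windows of 250 bases, the STAT motif was in 3 of 19 STAT3 target genes (*Socs3*, *Fga* and *Fgb*) and in 2 of 18 genes of the list that follows (*Reg3b* and *Steap4*), and a match says nothing of use in these tumors.

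Epithelial genes known to be induced by IL-17 and IL-22 formed the last pathway list. Of 25 genes in that list 24 were tested, and 2 rose in VP tumors after adjustment over all genes tested, beside 0.0794% of all genes. *Cxcl2*, a chemokine for neutrophils, was at 25.71, 25.97 and 30.23 TPM in *Trp53fl/fl* tumors and at 92.25, 86.14 and 87.34 TPM in VP tumors, an increase of 1.67 on the log2 scale (standard error 0.11, limma adjusted p = 0.00486). *Reg3b*, an antibacterial lectin, was at 63.58, 86.93 and 43.66 TPM and at 535.64, 553.08 and 382.92 TPM (log2 fold change 2.94, standard error 0.26, limma adjusted p = 0.0143). Both separated the genotypes widely. At an unadjusted p-value under 0.05, 18 genes were higher (beside 4.51% of all genes tested) and 0 lower (beside 8%), 15 were higher without overlap (beside 6.03%), and the median log2 fold change was 0.91. Genes of several kinds were among the 18, such as the chemokine *Ccl20*, which attracts *Ccr6*-bearing cells (4.70, 8.53 and 7.11 TPM against 18.35, 17.07 and 24.56 TPM, limma adjusted p = 0.109), and *Csf3*, which encodes granulocyte colony-stimulating factor (0.78, 0.06 and 0.39 TPM against 18.44, 5.08 and 6.15 TPM, limma adjusted p = 0.114). *Csf2* and *Csf3*, both counted among the 18, reached 1 TPM only in VP tumors and passed the filter through that genotype alone. The gene with the greatest mean level, *Dmbt1*, a mucosal scavenger protein, differed by 0.88 on the log2 scale (limma adjusted p = 0.278), and *Saa1*, an acute-phase protein, was the only one of the 24 with a negative value (-0.27, limma adjusted p = 0.630). Many of these genes also respond to other signals, and the list was chosen with earlier results of these tumors known, so that its count is not independent evidence of its direction.

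**Figure D4:**
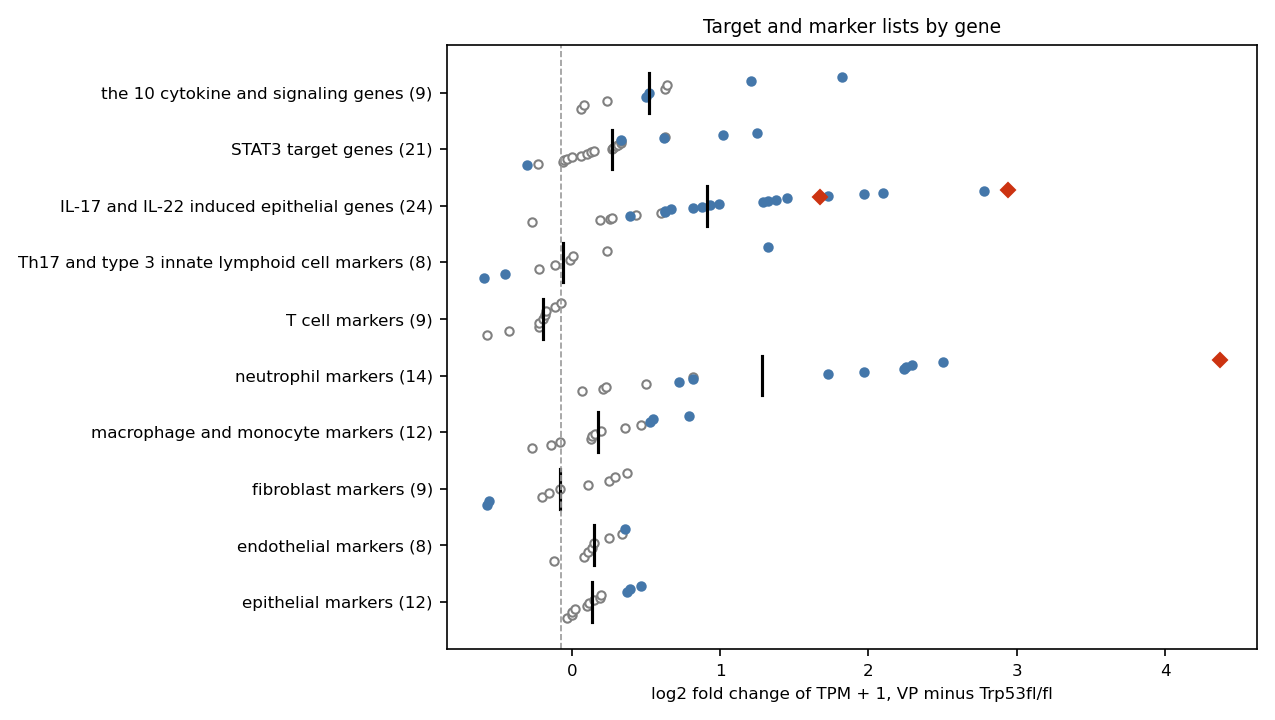
log2 fold change of TPM + 1 (VP minus Trp53fl/fl) of each tested gene, 1 line a list with the number tested in parentheses. Red diamonds have a limma adjusted p-value under 0.05, blue points only an unadjusted one, open points neither; black bars mark list medians (0.52 for the 9 tested cytokine and signaling genes, 0.91 for the induced genes and 1.28 for neutrophil markers), and the dashed line marks the median of all genes, -0.07.

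Markers of neutrophils stood higher beside these genes. Of 16 neutrophil markers 14 were tested, all with a positive log2 fold change. At an unadjusted p-value under 0.05, 9 were higher, beside 4.51% of all genes tested. *Csf3r*, *Ly6g* and *Mmp9* were among those that overlapped between the genotypes (log2 fold changes 0.07, 0.21 and 0.23). Only 1, *Ngp*, a granule protein, was higher after limma adjustment, beside 0.0794% of all genes tested (0.81, 0.21 and 0.62 TPM against 48.44, 18.17 and 32.08 TPM, log2 fold change 4.37, adjusted p = 0.00804). *Ngp* and *Camp* reached 1 TPM only in VP tumors and so passed the filter through that genotype alone, which bears on the adjusted call and on the count of 9. The summed level of the 16 genes was 613 to 1220 TPM in *Trp53fl/fl* tumors and 1710 to 2800 TPM in VP tumors. *S100a9* and *Lcn2* had the greatest levels in this list, and 3 of its genes also belong to the list of induced genes. *Camp* was listed at 0 in the *Trp53fl/fl* tumors, *Elane* was at 0.08 TPM in 1 VP tumor and at 0 in the others, and *Mpo* was at most 0.36 TPM. Neutrophils are a source of oncostatin M, and the part of these markers in the *Osm* and *Il6* values was not tested. Without the 3 shared genes, the induced list gave 15 of 21 genes higher at an unadjusted p-value under 0.05, with a median of 0.88. The neutrophil list without them gave 6 of 11, with a median of 0.82 in place of 1.28. *Csf2* and *Csf3* are among the 15 and *Ngp* and *Camp* among the 6, all of which passed the filter through VP tumors alone. Whether the induced genes rose apart from neutrophils was not tested.

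The cells that make IL-17A and IL-22 were followed by their own markers. Of 12 markers of Th17 and type 3 innate lymphoid cells 8 were tested, with a median log2 fold change of -0.06 and sums of 51.9 to 56.8 TPM and 55.4 to 64.3 TPM. *Ahr* and *Ccr6*, which the same cells also express, differed by -0.45 and -0.59 on the log2 scale (limma adjusted p = 0.341 and 0.370), and *Il17f*, *Il23r* and *Ncr1* were at most 0.49, 0.12 and 0.21 TPM. *Il1r1*, the most abundant gene of the list, had a log2 fold change of -0.01. The 9 tested T cell markers all had negative values, with a median of -0.19, none of them at an unadjusted p-value under 0.05. *Lck*, a T cell kinase, had a log2 fold change of -0.19, and *Cd3g*, the lowest, had 7.91, 6.59 and 6.63 TPM in *Trp53fl/fl* tumors and 2.95, 4.39 and 6.43 TPM in VP tumors.

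No gene of the macrophage, fibroblast and endothelial lists passed the limma adjustment. Macrophage and monocyte markers, led by *Lyz2* and *C1qa*, summed to 1310 to 1410 TPM and 1170 to 1620 TPM (median log2 fold change 0.18, with 3 of 12 higher at an unadjusted p-value under 0.05). Fibroblast markers, led by *Col3a1* and *Dcn*, summed to 882 to 962 TPM and 750 to 1100 TPM (median -0.08, with 2 of 9 lower), and endothelial markers, led by *Plvap* and *Pecam1*, to 130 to 164 TPM and 152 to 175 TPM (median 0.15, with 1 of 8 higher). The shares of all genes tested at that p-value were 4.51% higher and 8% lower.

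Finally, the order of the 6 tumors was compared between each member and 160 listed genes, as the number of the 15 pairs of tumors that stood in opposite order. Where 2 genes both separate the genotypes in the same direction, 9 of these pairs are in the same order by construction, and the tumors share their libraries. *Il6* had 1 opposite pair with *Saa3*, *S100a8* and *Il22ra1*. *Il22ra1* had 1 with *Pigr*, the receptor that carries IgA across epithelium, and with *Reg3b*. *Lif* had 0 with *Camp*, which was at 0 in the 3 *Trp53fl/fl* tumors, so that only the pairs among VP tumors could have been opposite. *Osm* had 1 with *Lif*, with *Socs3* and with the macrophage gene *C1qa*. *Socs3*, whose genotypes overlapped, had 0 opposite pairs with *C1qa* and *Thy1*, and *Stat3* had 0 with *Cebpb* and 2 with *Ptpn1*. *Il11* had 1 with *Ctf1*, a ligand of the same family, *Il17a* had 1 with *Fcgr1*, and *Il23a* had no closer gene than *Cebpd* with 2, followed by *Krt18* with 3. These counts are over 6 tumors and carry no test.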

How the data were processed

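RNA-seq was performed on poly(A)-selected RNA of AOM/DSS tumors, 3 *Trp53fl/fl* and 3 VP, with reads from both ends. The authors deposited TPM per gene with 2 decimals for each tumor, without pooling. The submitters' processing notes name HISAT2, StringTie and mm9, with no order or settings. TPM are relative to all other genes of a tumor and keep no depth, so no count model and no counting interval could be used. Columns were assigned by the tumor codes in the labels. Nothing in the labels says that tumors came from separate mice, so p-values measure the spread between these tumors.

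Gene positions were read from the GENCODE M21 annotation of GRCm38, where 52147 of 54167 gene IDs (96.3%) were found. The table itself carries no coordinates. Genes reaching 1 TPM in 3 or more tumors were tested on log2(TPM + 1), which understates changes of weak genes, with limma 3.58.1 in R 4.3.3 (genotype only, empirical Bayes with trend, Benjamini-Hochberg adjustment over 15117 genes), after a test on simulated data. *Il22*, below the filter, was tested by exact permutation. Tables, motif searches and plots were made with Python 3.11.15, pandas 2.3.3 and matplotlib 3.10.9. The members and lists were chosen with earlier results of these data known, and lists were described by counts and medians without a test. Genes named are the members, *Trp53*, *Iltifb*, listed genes past the adjustment, the 3 smallest p-values of each pathway list, the 2 nearest genes in tumor order of each member and the 2 most abundant of each marker list. Some genes that this rule covers are not reported here. Other genes named were chosen after their values were seen. Alternatives were a pseudocount of 0.1, no filter, a filter at a mean of 5 TPM, rescaling by median of ratios, quantile normalization, no trend, the replicate number as a block, and each tumor left out in turn.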

Additional observations from a re-analysis of the deposited data

How the results depend on the processing

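No member passed the limma adjustment under any alternative. The count of all genes past it was 25, and it was 7 without an expression filter and 6 to 28 when single tumors were left out. With the replicate number as a block it was 10 (7 higher and 3 lower). The labels tie no number to an animal or batch, and same-numbered tumors did not deviate together (correlations across genes of 0.0185, -0.052 and 0.0175), so they do not pair the tumors. The block changed no call of a member.

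The direction of *Il6*, *Osm*, *Lif*, *Il22ra1*, *Il11* and *Socs3* held under every alternative that gave a value. With single tumors left out, the log2 fold change was 1.59 to 2.15 for *Il6* (limma adjusted p = 0.0903 to 0.330), 1.05 to 1.31 for *Osm* (0.151 to 0.322), 0.39 to 0.58 for *Lif*, 0.42 to 0.64 for *Il22ra1*, 0.10 to 1.22 for *Il11* and 0.26 to 0.89 for *Socs3*. Other settings gave 1.82 to 2.86 for *Il6*, the highest with a pseudocount of 0.1. Of the members near 0, 3 turned direction, with ranges of -0.05 to 0.45 for *Il17a*, -0.17 to 0.41 for *Il23a* (also -0.06) and -0.04 to 0.13 for *Stat3* (also -0.02), and the cause was not tested. With a mean of at least 5 TPM, *Il6* and *Il17a* were not tested. Members at an unadjusted p-value under 0.05 numbered 3 to 5 of those tested. For *Il22*, the exact permutation p was 0.8 with a pseudocount of 0.1 (difference 0.25). Adding its copy *Iltifb* could not change the value, because the copy was listed at 0 in every tumor. With 3 tumors a genotype, intervals of the members span up to several-fold differences, and weak genes such as *Il22* and *Il6* have low TPM of unknown read depth.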

Other observations

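The ligands of the IL-10 family other than IL-22 were at the edge of what the values resolve, and no gene of that list reached the expression filter. *Il10*, an anti-inflammatory cytokine, was at 0.06, 0.19 and 0.14 TPM in *Trp53fl/fl* tumors and at 0.84, 0.33 and 0.06 TPM in VP tumors. *Il19* and *Il24* were each above 0 in at most 2 tumors, and *Il20* was listed at 0 in all 6. *Il22ra2*, a soluble receptor that captures IL-22, was at 0.29, 0.00 and 0.89 TPM in *Trp53fl/fl* tumors and at 0.08, 0.49 and 0.09 TPM in VP tumors, with overlap. Its level was above that of *Il22* in 4 of the 6 tumors. *Il22* and the other IL-10 family ligands together gave 0.23 to 0.38 TPM in *Trp53fl/fl* tumors and 0.8 to 0.87 TPM in VP tumors. These sums did not overlap, but a different gene was the largest part in different VP tumors. None of these values was tested.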
